A study of Homo sapiens with 18 samples.

Results

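The long xChIP H1.5 domains are the peaks of histone H1.5 in single-fixation ChIP-seq that span 20 kb or more from start to end, on chromosomes 1 to 22 and X. They numbered 1403 of the 139701 xChIP H1.5 peaks on these chromosomes (1.00%), and of 563676 peaks in the 4 lists of the series. They were chosen by their length alone, so length is given as a description and is not tested. The series mapped the linker histones H1.2 and H1.5 in undifferentiated HL-60/S4 cells, a human myeloid leukemia line. Each histone was mapped by xChIP-seq, in which fixed cells are sonicated before the antibody is added, and by xxChIP-seq, in which the antibody binds fixed, permeabilized cells that are then washed, fixed again and sonicated. Each of the 4 combinations had 3 samples, and the 6 Input samples were left aside. No group was treated or genetically changed, and both antibodies were rabbit polyclonals.

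Linker histones bind the nucleosome where DNA enters and leaves it, and they help to fold nucleosome arrays into compact chromatin. H1.2 and H1.5 are somatic subtypes that differ mainly in their tails. In xChIP, sonication opens the chromatin before the antibody meets its epitope, whereas in xxChIP the antibody reaches only epitopes that are exposed in the fixed nucleus.

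Each list gives merged peak positions with no height, score or read number. The depth behind a domain and its spread between replicates are therefore unknown. Values were instead set against 1000 placements of the same domains, each kept at its own length and chromosome and outside assembly gaps, and observed values carry a jackknife standard error (SE) over 23 chromosomes. The p-values are two-sided empirical permutation values, adjusted by Benjamini-Hochberg over 10 measures, and no value under 0.002 is possible with 1000 placements. The placements describe position on the chromosome only. Whether a stretch could be read by unique mapping was not tested.

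The domains differed widely in their DNA, and 2 of them show this. The bases are the central 300 of the longest domain and of the domain with the highest GC content, read 5′ to 3′ on the plus strand of GRCh37, the sequence of hg19. In the longest domain, on chromosome 12, capitals mark each base that equals the base 171 bp further on. In the other, capitals mark CpG, the dinucleotide that carries DNA methylation.
Longest domain, chr12:38108366-38108665: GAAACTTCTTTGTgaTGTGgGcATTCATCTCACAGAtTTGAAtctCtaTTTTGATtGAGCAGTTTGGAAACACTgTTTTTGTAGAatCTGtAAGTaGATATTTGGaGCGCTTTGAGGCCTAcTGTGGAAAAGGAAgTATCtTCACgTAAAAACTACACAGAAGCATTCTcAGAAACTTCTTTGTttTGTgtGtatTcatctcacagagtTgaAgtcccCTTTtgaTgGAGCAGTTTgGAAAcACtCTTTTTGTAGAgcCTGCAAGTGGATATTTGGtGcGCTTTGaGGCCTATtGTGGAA
Highest GC, chr10:135490717-135491016: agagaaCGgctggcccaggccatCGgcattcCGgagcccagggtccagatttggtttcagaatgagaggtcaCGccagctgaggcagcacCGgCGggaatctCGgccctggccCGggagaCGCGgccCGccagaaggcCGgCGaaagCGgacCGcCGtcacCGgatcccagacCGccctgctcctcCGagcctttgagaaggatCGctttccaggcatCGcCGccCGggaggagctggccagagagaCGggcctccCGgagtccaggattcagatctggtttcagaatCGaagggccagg
In the first sequence 238 of the 300 bases (79.3%) recurred 171 bp on. Over the whole of that domain a smaller share, 51.4% of the bases, equalled the base 171 bp on. Alpha satellite, the tandem repeat of human centromeres, is built of units of that length. The second sequence had a GC content of 66.3% with 26 CpG, and its domain holds pseudogenes of DUX4, the double homeobox gene of the D4Z4 macrosatellite.

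The domains had a median length of 26900 bp, with quartiles of 22690 and 35764 bp. There were 538 domains of at least 30 kb, 169 of at least 50 kb and 22 of at least 100 kb, and the longest reached 236674 bp. Together they held 46.6 Mb, which is 1.64% of the known sequence of these chromosomes and 10.1% of the bases under all xChIP H1.5 peaks. The members just inside the limit spanned 20003 bp (chr14:24049693-24069695) and 20006 bp (chr14:41792289-41812294). The peaks just outside it spanned 19985 bp (chr3:122356073-122376057) and 19977 bp (chr6:93321898-93341874). Merging offset peaks of 3 replicates can lengthen a region, and its part in these lengths was not tested.

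The 12 longest domains were of 2 kinds. In 8 of them no protein-coding gene lay under the domain, GC content was 36.7% to 42.5% and xxChIP H1.2 peaks covered 62.7% to 100% of the bases. Of these 8, 7 lay within 2 Mb of an assembly gap of 1 Mb or more. The longest, chr12:37990179-38226852, lay wholly under xChIP H1.2 peaks (100%), and the xxChIP lists covered 95.8% (H1.2) and 94.9% (H1.5). The other 4 overlapped protein-coding genes and had a GC content of 45.9% to 48.6%. They were covered to 96.8% or more by xChIP H1.2 but to at most 5.39% by either xxChIP list. The share of their bases in protein-coding genes differed widely. It was 95.8% at chr15:41603865-41749571 and 42.4% at chr7:72442310-72575988. At chr3:195799727-195919829 it was only 7.74% and at chr7:72589885-72726508 only 4.62%.

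The longest gene-bearing domain, chr15:41603865-41749571, spanned 145707 bp. It held the whole of NUSAP1, a spindle protein, and of NDUFAF1, an assembly factor of mitochondrial complex I, with 89.7% of OIP5, a centromere protein, and 65.2% of RTF1, a transcription elongation factor. The unnamed gene ENSG00000285920 was covered to 71.5%. Coverage of the domain by xChIP H1.2 was 100%, and that by the xxChIP lists was 5.26% (H1.2) and 0.711% (H1.5). The domain chr7:72589885-72726508 held NSUN5, an RNA methyltransferase gene, and chr3:195799727-195919829 held the start of TFRC, the transferrin receptor. Protein-coding genes of domain chr7:72442310-72575988 were SPDYE10 and AC005488.1, of 10 annotated genes of all types. This domain also held 4 pseudogenes, and chr7:72589885-72726508 held 5. Reads can be shared between duplicated copies, so the values of these chromosome 7 domains are uncertain.

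GC content was higher than in the placements. It was 42.6% ± 0.52 (SE over 23 chromosomes) in the domains and 40.7% in the placements on average, which ranged from 40.2% to 41.2% (adjusted p = 0.002, permutation). The ratio of observed to expected CpG was 0.254 ± 0.00712 against 0.218, a 1.17-fold excess (adjusted p = 0.002, permutation). Single domains ran from 32.2% to 68.2% GC with a median of 41.2%, and 732 of 1403 (52.2%) lay above the 40.9% of these chromosomes as a whole. A GC content of 50% or more was found in 96 domains.

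The domains of highest GC content were repeated gene arrays. At chr10:135478623-135503110, 68.2% GC, lay 6 DUX4-like pseudogenes. At chr1:228744264-228782291, 67.8% GC, lay 17 genes of 5S ribosomal RNA, the small RNA of the large ribosomal subunit. At chr4:190986689-191021013, 66.5% GC, lay DUX4 with its neighbouring copies. All 3 were covered to 92.0% or more by xChIP H1.2 peaks and to at most 5.44% by either xxChIP list. Reads can be shared between the copies of such arrays, so these values are uncertain. Among the domains of lowest GC content were chr22:16098622-16118637 (32.8%) and chr4:59716169-59737384 (33.6%), where xChIP H1.2 coverage was 0% and 23.7%.

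**Figure D1:**
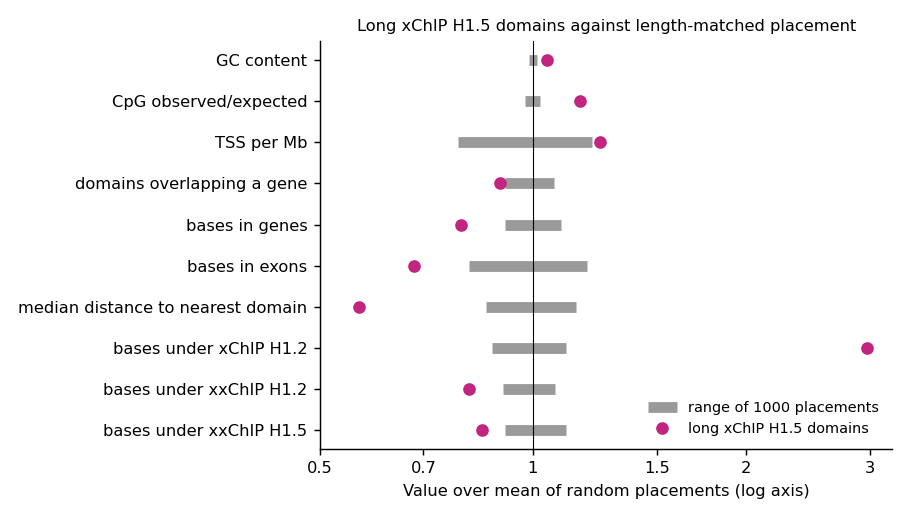
Values of the long xChIP H1.5 domains (points) and the range of 1000 length-matched placements (grey bars), each divided by the mean of the placements, on a log axis. Coverage by xChIP H1.2 lies 2.97 times above the mean of the placements, and the distance to the nearest domain lies 0.568 times the mean.

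Genes covered less of the domains than of the placements. Protein-coding genes held 37.002% ± 2.23 of the domain bases against 46.8% (range 42.7% to 51.2%), and their exons held 2.53% ± 0.308 against 3.74% (range 3.03% to 4.46%). At least 1 protein-coding gene overlapped 50.7% ± 2.86 of the domains against 56.4% of placed ones. All 3 differences had an adjusted p of 0.002 (permutation). The last did not pass with domains of 30 kb or more (ratio 0.950, adjusted p = 0.202, permutation) or away from chromosome ends and large gaps (ratio 0.954, adjusted p = 0.0679, permutation).

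Transcription start sites (TSS) of protein-coding genes were denser in the domains, at 8.45 ± 1.12 per Mb against 6.78 per Mb, a 1.25-fold excess (range 5.32 to 8.24, adjusted p = 0.002, permutation). This excess depended on where the domains were placed and on 1 chromosome. Against placements matched on GC content it was 0.981-fold (adjusted p = 0.779, permutation), and within 5 Mb of each domain's own position it was 0.987-fold (adjusted p = 0.857, permutation). Without chromosome 7 it was 1.10-fold (adjusted p = 0.15, permutation). The main placements do not keep the spacing of the domains. With the domains of a chromosome shifted together, which keeps it, the excess was 1.24-fold (adjusted p = 0.016, permutation). The shifted values ranged from 5.11 to 8.94 per Mb, a range that holds the observed density. The TSS were also unevenly shared among the domains. Of 1403 domains, 1131 held no TSS, 199 held 1, 50 held 2 and 23 held 3 or more.

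The domains with most TSS were gene clusters. The first and the third by number, with 12 and 8, were chr4:9211875-9274561 and chr4:9324695-9374092, where every TSS belonged to the USP17L family of deubiquitinase genes, which stand in near-identical tandem copies. Their reads can be shared between copies, so these values are uncertain. Both USP17L domains were covered to 95.0% or more by both xxChIP lists, with xChIP H1.2 at 84.5% and 90.9%. The second, chr7:102211848-102315207, held 9 TSS, among them those of POLR2J2, POLR2J3, RASA4, UPK3BL1 and SPDYE2B. It was covered to 100% by xChIP H1.2 but to 7.95% and 9.0045% by the xxChIP lists. POLR2J3 is annotated there more than once, beside POLR2J2. Sharing of reads between such copies was not tested, so these values are uncertain too. Without the USP17L genes the TSS density was 1.18 times that of the placements (adjusted p = 0.00999, permutation).

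Of 20098 protein-coding genes, 887 were overlapped by a domain, which is 4.41% of all, and 394 had their TSS in one, which is 1.96%. The overlapped genes had a median length of 60.0 kb against 27.3 kb for all, and 376 domains lay inside a single gene. A domain held the whole of 134 genes, whose median length was 6.26 kb. Any long interval meets long genes and encloses short ones more easily. These lengths and counts were not set against placements. The most covered genes were SUCLA2, a subunit of succinyl-CoA synthetase, with 126 kb under 5 domains, STXBP5L with 108 kb, CLIP2, a microtubule-binding protein, with 104 kb, and NBPF20 with 94.8 kb. IRAK2, a kinase of interleukin-1 receptor signalling, had 98.6% of its length under 2 domains. SUMF1, SRPK2, DOCK3, HIP1, NUBPL, SUPT3H and NBPF8 followed with 71.8 to 88.0 kb. NBPF20 and NBPF8 belong to a family of near-identical copies and are uncertain.

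Gene families were read against these shares of 4.41% and 1.96%, with no test of a family. The shares are over all chromosomes, although domains per Mb differed between them. A family was not matched to its own chromosomes. A domain overlapped 5 of 415 olfactory receptors (1.205%), 9 of 515 ZNF genes (1.75%) and 1 of 149 keratins and keratin-associated proteins, which was KRT8. Olfactory receptors and keratins are short, with medians of 2.08 and 1.16 kb, and a domain meets short genes less easily. By TSS, which does not depend on gene length, the shares were 0.723%, 0.583% and 0%. Genes of 500 kb or more, which a domain meets more easily for their length, were overlapped in 54 of 323 cases (16.7%), but only 1 of them at its TSS (0.310%). No member was overlapped among 59 core histone genes, 53 clustered protocadherins, 39 HOX genes, 27 taste receptors, 22 UDP-glucuronosyltransferases, 20 ionotropic glutamate receptor subunits, 19 HLA genes or 8 linker histone genes. A share of 4.41% would give only a few members even in the largest of these families, so nothing is read from these zeros.

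None of 14 azurophil granule proteins, 16 myeloid transcription factors or 7 leukocyte integrins, families tied to myeloid cells, was overlapped. These families are so small that a share of 4.41% would give less than 1 member in each, and nothing is read from their zeros. Of 43 chemokine ligands 3 were overlapped (6.98%). CCL24 and CCL26, attractants of eosinophils, lay wholly under a domain, and CXCL13, an attractant of B cells, was covered to 27.5%. CCL24 and CCL26 lay in the same chain of domains on chromosome 7, so they do not count separately. Of 6 NADPH oxidase subunits NCF1 lay wholly under a domain, and since NCF1 has near-identical pseudogene copies this is uncertain. Of 12 lamins and nuclear envelope proteins SUN1, which links lamins to the cytoskeleton, was covered to 21.3%. With so few members overlapped, nothing is read from the shares of these families either.

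Further families had 1 to 3 members each. They were CDH17 of 23 cadherins, GABRB1 of 19 GABA-A receptor subunits, and DEFB123 and DEFB124 of 46 defensins. Cytochrome P450 genes gave CYP3A5, CYP3A7-CYP3A51P and CYP4Z1 of 57. Cytosolic ribosomal proteins gave RPL6, RPL39L and RPS26 of 84, with RPS26 wholly covered. Of annotated genes of all types 3.08% were overlapped. By type the share was 2.45% of long non-coding RNA genes, 3.98% of unprocessed pseudogenes and 5.23% of transcribed unprocessed pseudogenes, and none of 143 immunoglobulin and 95 T-cell receptor variable segments was overlapped.

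H1.2 peaks of the same protocol covered most of the domains. They covered 83.1% ± 1.55 of the domain bases against 28.0% in the placements (range 24.5% to 31.2%), a 2.97-fold excess (adjusted p = 0.002, permutation). The median domain was covered to 92.9%, 1221 domains (87.0%) were covered to at least 50%, and 12 had no H1.2 peak. Of placed domains 18.6% on average were covered to at least 50% (adjusted p = 0.003, permutation). A single H1.2 peak enclosed 514 domains (36.6%), and the median length of that peak was 88710 bp.

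Peaks of the xxChIP lists covered less of the domains than of the placements. For xxChIP H1.2 the share was 17.5% ± 1.199 against 21.5% (range 19.5% to 23.1%), and for xxChIP H1.5 it was 15.7% ± 0.998 against 18.6% (range 17.0% to 20.7%), both with an adjusted p of 0.002 (permutation). Of 1403 domains, 356 had no xxChIP H1.2 peak and 400 no xxChIP H1.5 peak, numbers that were not set against placements. At least 50% was covered in 95 domains by xxChIP H1.2, 6.77% against 9.73% of placed ones (adjusted p = 0.003, permutation). For xxChIP H1.5 it was 85 domains, 6.06% against 6.68% (adjusted p = 0.366, permutation). Against placements matched on GC content the ratios were 0.972 and 0.990 (adjusted p = 0.408 and 0.779, permutation). With domains of 30 kb or more they were 1.00 and 0.989 (adjusted p = 0.967 and 0.861, permutation).

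Sorted by these shares, 1129 domains (80.5%) were at least 50% covered by xChIP H1.2 and not by either xxChIP list. A further 92 were at least 50% covered by xChIP H1.2 and by an xxChIP list, 25 by an xxChIP list alone, and 157 by neither. These classes were not counted in the placements. Most placed domains also stayed under 50% for both xxChIP lists, so that part of the sorting is not particular to the long domains. Genes held 42.1% of the bases of the 1129 domains but 5.07% of those of the 92, of which 53 lay beside a large gap. Median GC content was 42.1% and 37.7% in these classes.

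**Figure D2:**
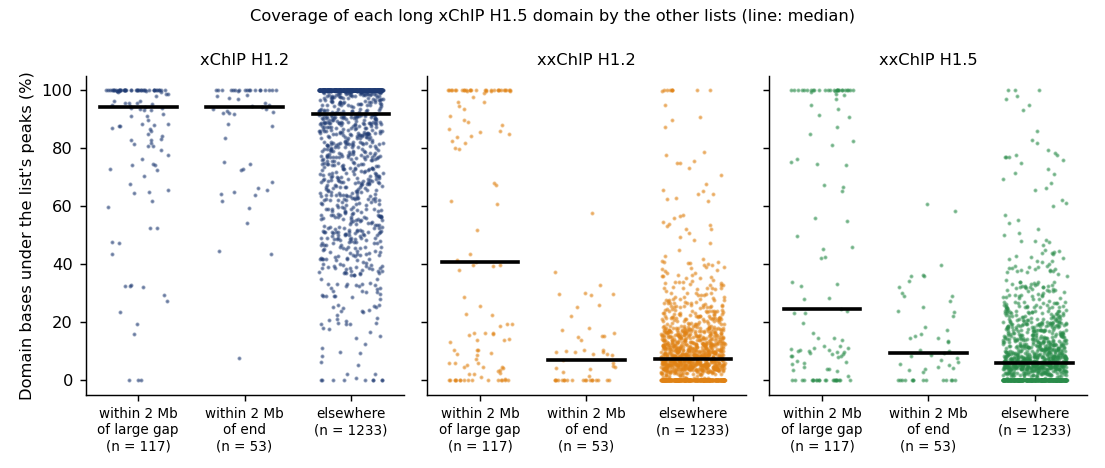
Share of each long xChIP H1.5 domain under peaks of xChIP H1.2, xxChIP H1.2 and xxChIP H1.5 (vertical axis, %), with 1 point per domain and a line at the median, for 117 domains within 2 Mb of an assembly gap of 1 Mb or more, 53 within 2 Mb of a chromosome end and the other 1233. The xxChIP points reach 100% mainly beside the gaps, whereas xChIP H1.2 is high in all groups.

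Position on the chromosome separated the xxChIP coverage. Within 2 Mb of an assembly gap of 1 Mb or more, a class that includes the centromeres, lay 117 domains (8.34%), at 1.46 per Mb. Within 2 Mb of a chromosome end lay 53 (0.672 per Mb), and the other 1233 lay at 0.461 per Mb. Beside the gaps xxChIP H1.2 covered 63.5% and xxChIP H1.5 53.3% of the domain bases, against 11.3% and 10.6% in the 1233 domains. Placed only beside the gaps, the 117 domains had 2.03 and 1.95 times the xxChIP coverage of their placements (adjusted p = 0.0025 for both, permutation), and the 1233 domains had 0.527 and 0.571 times theirs (adjusted p = 0.00222 for both, permutation).

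Over the 22 chromosomes with domains of both kinds, the share under xxChIP H1.2 was 60.2% beside gaps and 13.2% elsewhere, a difference of 47.1 ± 27.7 percentage points (SD), and it was higher beside gaps on 21 of 22 chromosomes (adjusted p = 1.67e-05, sign-flip permutation). For xxChIP H1.5 it was 48.7% and 11.4%, higher on 21 of 22 (adjusted p = 1.67e-05, sign-flip permutation). TSS density was 0.689 per Mb beside gaps and 7.25 per Mb elsewhere (adjusted p = 1.67e-05, sign-flip permutation), and GC content was 39.5% and 42.9% (adjusted p = 0.000212, sign-flip permutation). For xChIP H1.2 the shares were 83.9% and 78.9%, a difference of 4.94 ± 20.3 percentage points (SD, adjusted p = 0.275, sign-flip permutation). This division was made after the values were seen. Copy number and unique mapping of reads differ between such regions and the rest of the genome, and their part was not tested.

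Tandem repeats marked many of the domains beside gaps. A domain was counted as repeated where at least 50% of its bases equalled the base at 1 fixed distance, searched from 20 to 6000 bp. This held for 46 domains (3.28%) and on average for 2.05 of as many placed ones (0 to 6 in 20 placements). Beside a large gap lay 36 of the 46. These placements ran over the whole chromosome outside gaps and none was confined to the sides of large gaps. The comparison therefore does not separate repeats from position. Among these 46 domains the most frequent distance was 171 bp, which was the best distance in 23. With 1 more, whose best distance of 2734 bp lay within 3 bp of a multiple and in which at least 50% of bases also recurred at 171 bp, there were 24, and 21 of them lay beside a gap. These 24 held 1.72 Mb and were covered to 93.4% by xChIP H1.2 peaks, with 89.8% (H1.2) and 73.02% (H1.5) under the xxChIP lists. The arrays of 5S RNA and DUX4 genes repeated at 2241 bp and 3293 to 3310 bp and had no or little xxChIP coverage. Reads can be shared between repeat copies, so the coverage of all these repeated domains is uncertain.

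Away from gaps and ends, coverage by the other lists varied with GC content. In 4 groups of the 1233 domains of about equal number, from 32.2% to 39.0% GC up to 45.4% to 67.8%, xChIP H1.2 covered 67.8%, 77.2%, 85.9% and 94.6% of the bases. The share under xxChIP H1.2 was 17.2%, 12.5%, 11.7% and 5.77%, and under xxChIP H1.5 18.1%, 12.4%, 8.72% and 5.04%. TSS density was 1.23, 1.79, 9.14 and 21.3 per Mb. Across the 1233 domains, which are not independent replicates, Spearman's rho with GC content was 0.533 for xChIP H1.2 coverage, and -0.315 (H1.2) and -0.413 (H1.5) for that by xxChIP peaks. The lists share the genome's base composition and mapping, so these are descriptions.

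**Figure D3:**
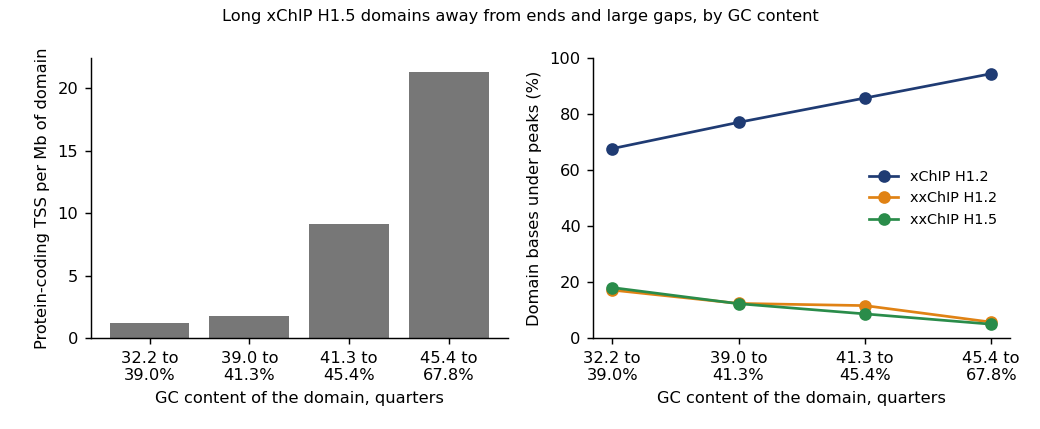
Protein-coding TSS per Mb (left) and share of domain bases under peaks of the other lists in % (right) in 4 groups by GC content of the 1233 long xChIP H1.5 domains away from chromosome ends and large gaps. TSS density goes from 1.23 to 21.3 per Mb and xChIP H1.2 coverage from 67.8% to 94.6%, while both xxChIP lists go down.

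Coverage by xChIP H1.2 also went down at the edges of the H1.5 domains. With each of the 1233 domains cut into 10 equal parts, xChIP H1.2 covered 79.2% to 84.3% of a part, 54.0% of the first 2 kb outside and 43.6% at 98 to 100 kb. The outermost parts were covered to 14.9% and 13.4% by xxChIP H1.2 peaks, and the other parts to 9.58% to 11.5%. In the first 2 kb outside, xxChIP H1.2 covered 8.74%, and at 10 to 12 kb 16.6%. GC content was 42.7% to 43.3% inside and 42.1% in the first 2 kb outside.

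**Figure D4:**
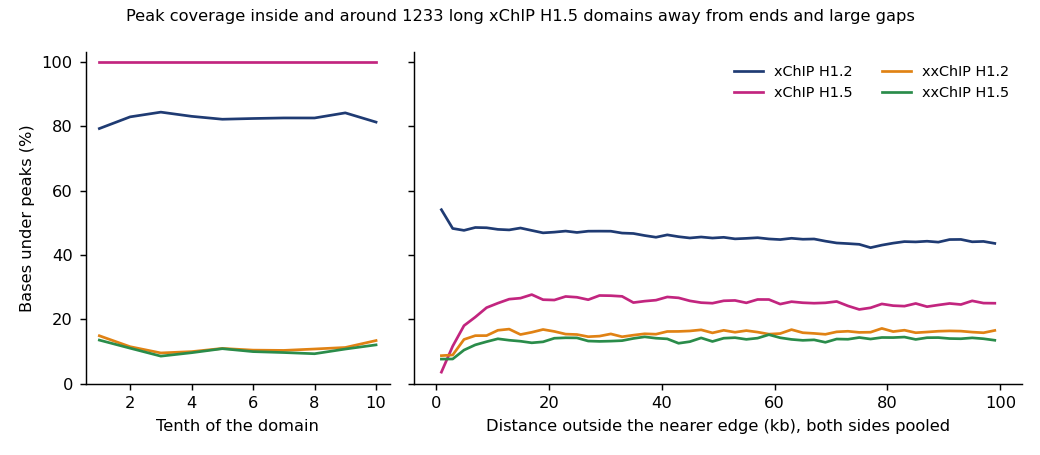
Share of bases under peaks of the 4 lists (vertical axis, %) in 10 equal parts of the 1233 long xChIP H1.5 domains (left) and in 2-kb steps out to 100 kb from the nearer edge (right, both sides pooled). The xChIP H1.5 line is at 100% inside by definition, and xChIP H1.2 goes from 79.2% or more inside to 54.0% in the first step outside.

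The domains lay closer together than placed ones. The median distance to the nearest other domain was 299.9 kb against 528 kb (range 453 to 609 kb, adjusted p = 0.002, permutation). Within 100 kb of another lay 398 domains, 28.4% against 15.8% in the placements (range 11.8% to 20.4%). At 10 kb the share was 6.34%, inside the range of the placements (3.14% to 8.13%). Placed domains were drawn independently and could overlap each other, and such pairs were counted as near. The shares at this shortest distance are therefore not comparable, and nothing is read from them. Domains less than 100 kb apart formed 154 chains of 2 or more, of which 49 had 3 or more, and 1005 domains stood alone.

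All 5 chains with most domains lay on chromosome 7. The first, chr7:72330078-73241643, held 11 domains over 912 kb in the Williams-Beuren syndrome region, which is known for its large segmental duplications. Under them lay, in whole or in part, ABHD11, BCL7B, CLDN4, MLXIPL, NSUN5, POM121, SPDYE10, STX1A, TBL2, VPS37D and AC005488.1. Of these, MLXIPL is a glucose-responsive transcription factor, STX1A a syntaxin of vesicle fusion and CLDN4 a tight-junction claudin. The third, chr7:73611234-74052679, held 7 domains that overlapped CLIP2, EIF4H, GTF2IRD1 and LAT2. They covered 89.6% of CLIP2 and 20.8% of GTF2IRD1, but only 0.957% of EIF4H. The fourth, chr7:75281440-75675846, held 6 that overlapped CCL24, CCL26, HIP1, POR, RHBDD2 and STYXL1, of which POR is the electron donor of cytochrome P450 enzymes. These 3 chains had a GC content of 48.2% to 51.2%, were covered to 97.9% or more by xChIP H1.2, and to at most 5.52% by either xxChIP list.

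The second and the fifth chains were of the opposite kind. They held 8 and 6 domains at chr7:61108620-61803356 and chr7:61967063-62456522, beside a large gap, with no protein-coding gene, a GC content of 36.8% and 37.2%, and xxChIP coverage of 82.4% to 90.3%. Coverage by xChIP H1.2 was 91.8% and 93.9%.

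The number of domains differed between chromosomes. Per Mb of known sequence, chromosome 7 had most, at 1.00 (156 domains), followed by chromosome 12 at 0.943 (123 domains). Chromosome 16 had 2 (0.0254 per Mb), chromosome 10 had 11, chromosome 17 had 7, chromosome 19 had 6 and X had 15 (0.0993 per Mb). Among xChIP H1.5 peaks, long ones made up 1.93% on chromosome 7 and 0.0781% on chromosome 16. Across 23 chromosomes Pearson's r of domains per Mb was 0.924 with the share of the chromosome under all xChIP H1.5 peaks, which includes the domains, and -0.334 with GC content. With genes per Mb it was -0.313, and near 0 without chromosomes 17 and 19. Copy number of the chromosomes in these cells was not analysed here, and its part was not tested.

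**Figure D5:**
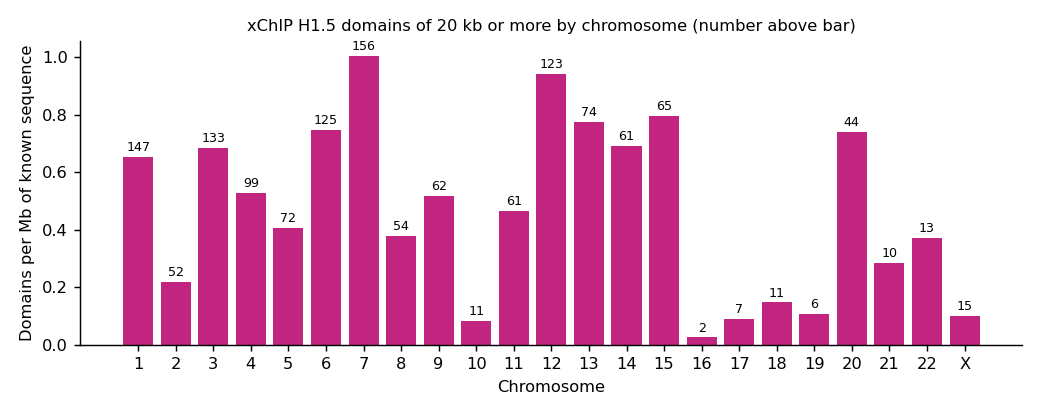
Long xChIP H1.5 domains per Mb of known sequence (bars) on each chromosome, with the number of domains above each bar. Chromosome 7 has 156 domains and chromosome 16 has 2.

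Set against the other 138298 xChIP H1.5 peaks, the long domains differed in coverage by xChIP H1.2. Averaged over 23 chromosomes it was 80.4% in the long domains and 50.9% in the shorter peaks, a difference of 29.6 ± 8.39 percentage points (SD), higher on 23 of 23 chromosomes (adjusted p = 5e-05, sign-flip permutation). Against shorter peaks of at least 5 kb the difference was 13.6 percentage points, higher on 22 of 23 (adjusted p = 5e-05, sign-flip permutation). GC content differed by 0.905 ± 2.13 percentage points (SD, higher on 18 of 23, adjusted p = 0.131) and TSS density by 1.68 ± 4.93 per Mb (SD, adjusted p = 0.195, both sign-flip permutation). For the xxChIP lists no direction could be given. The mean differences were 3.84 ± 19.7 (H1.2) and 2.54 ± 18.3 (H1.5) percentage points (SD, adjusted p = 0.477 and 0.543, sign-flip permutation), while the long domains were lower on 14 and 16 of 23 chromosomes. With each peak weighted equally the differences were -3.58 and -2.96 percentage points (adjusted p = 0.309 for both, sign-flip permutation).

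Long domains of the other lists had other DNA. There were 5803 xChIP H1.2 peaks and 1618 xxChIP H1.5 peaks of 20 kb or more. Averaged over 23 chromosomes, GC content was 42.1% in the long xChIP H1.5 domains, 45.6% in the long xChIP H1.2 domains (lower in H1.5 on 23 of 23) and 38.005% in the long xxChIP H1.5 domains (higher in xChIP on 22 of 23). TSS density was 6.26 per Mb, against 16.0 per Mb in long xChIP H1.2 and 1.60 per Mb in long xxChIP H1.5 domains. The largest adjusted p of these 4 comparisons was 2e-05 (sign-flip permutation). The sets overlap in part: 970 long xChIP H1.5 domains (69.1%) met a long xChIP H1.2 domain, and 927 of the latter (16.0%) were met. With long xxChIP H1.5 domains the shares were 5.35% and 4.51%.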

How the data were processed

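xChIP-seq and xxChIP-seq for H1.2 and H1.5 were performed on HL-60/S4 cells in 3 samples per combination. The authors sequenced paired ends, aligned them to hg19 with Bowtie2 (up to 2 mismatches, uniquely mappable reads), and called peaks with MUSIC, left at its defaults, before joining the 3 replicates into 1 list. The deposited lists hold start and end positions in bp, with no count, height or score, so the depth is unknown and the 6 Input samples were not used. No peak ran past the end of its chromosome in the GRCh37 primary assembly (2836 Mb known, 286 gaps of at least 50 bp). Genes were those of GENCODE version 44 lifted to GRCh37.

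Placements were uniform among the allowed starts of each chromosome. Domains were placed independently of each other, so the main placements do not keep their spacing and can be too narrow for clustered domains. TSS and coverage were counted per base. Differences between classes of domains were tested over chromosomes by 100000 sign flips, two-sided, where 1e-05 is the smallest p, with Benjamini-Hochberg adjustment over 5, 4 and 5 tests. Python 3.11.15, numpy 2.4.6 and matplotlib 3.10.9 were used, and the placement step was tested on simulated data.

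The domains, the 24 gene lists and the tests were chosen with earlier results of these data known. Genes named are those under the 12 longest domains, the 12 with most covered bases, those of the 5 largest chains and the members of the gene lists (the 4 most covered where over 6 were overlapped). Domains named are the 12 longest, the 3 of highest and of lowest GC content, the 3 with most TSS and those at the limit. The central bases of the longest domain and of that of highest GC content are printed. A few items that these rules name are not reported here. The classes by distance to large gaps, the groups by GC content and the search for tandem repeats were added after values were seen. Alternatives changed the minimum length, the placement, the chromosomes, the gene class and the measure of coverage. Leaving out a replicate was not possible with merged lists.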

Additional observations from a re-analysis of the deposited data

Results flagged for a closer look

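Domains within 2 Mb of large assembly gaps differed from the domains away from gaps and ends in 4 of 5 measures tested over 22 chromosomes by sign flips. The difference, beside gaps minus elsewhere, was 47.1 percentage points for the share under xxChIP H1.2 peaks, and 37.3 percentage points for that under xxChIP H1.5. It was -6.56 per Mb for TSS density and -3.34 percentage points for GC content. The share under xChIP H1.2 did not pass the test. No explanation was tested.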

How the results depend on the processing

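The 19 results were recomputed 125 times in all under the alternatives, and 109 of these values kept their side of the threshold and, where the reported value passed it, their direction. Ratios of observed to placed values ran from 2.36 to 4.67 for xChIP H1.2 coverage, from 1.10 to 1.31 for CpG, from 0.381 to 0.871 for bases in genes and from 0.261 to 0.761 for bases in exons, and these 4 results held under all their alternatives. With a minimum length of 30 kb, the ratio was 0.950 for domains overlapping a gene, and for the xxChIP lists 1.00 (H1.2, reversed) and 0.989 (H1.5). The ratio for domains overlapping a gene was 0.962 with placement anywhere, gaps included, and 0.954 away from ends and large gaps. For TSS density it was 0.987 with placement within 5 Mb and 0.981 with placement matched on GC content to 1 percentage point, both reversed. GC-matched ratios for the xxChIP lists were 0.972 (H1.2) and 0.990 (H1.5). Counting domains covered to 50% or more, it was 0.907 for xxChIP H1.5. The cause was not tested.

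Of these values, 21 came from alternatives added after seeing the data. With only the 117 domains beside large gaps, placed there, ratios reversed for GC content (0.972), TSS density (0.136), nearest distance (1.07) and both xxChIP lists (2.03 for H1.2, 1.95 for H1.5). Without chromosome 7 the ratio for TSS density was 1.10. No paired analysis was possible because the 3 replicates were joined into 1 list, and for the same reason no replicate could be left out.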
